A study of Mus musculus with 15 samples.

Results

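The genes described here are 10 genes best known from neurons whose axon has been cut or crushed: Atf3, Jun, Sox11, Gap43, Sprr1a, Gal, Ecel1, Gadd45a, Hspb1 and Flrt3. They were taken by symbol from the deposited gene table, where they fill 11 of 36814 rows, because Flrt3 has a long and a short gene model. All 11 rows were among the 14340 that passed the filter on low counts, which asked for about 1.51 CPM in 3 libraries. Gal passed it through the 3 libraries of 1 pool (IF) and no other library, whereas the other 10 rows would have passed without any 1 pool. The study profiled mouse spinal motor neurons at postnatal day 6 in 5 motor pools, a motor pool being the neurons that innervate 1 muscle or muscle group. Wild-type pups had received an injection of CTB-555, a fluorescent cholera toxin tracer carried back along the axon, into 1 muscle at postnatal day 4, and labelled cells were cut from spinal cord sections by laser 2 days later. The groups were TA (tibialis anterior), EDL (extensor digitorum longus), PL (peroneus longus), GS (gastrocnemius) and IF (intrinsic foot), with 3 libraries each, and every library came from 30 to 40 cells of 2 to 5 animals. All 15 libraries thus came from injected animals of 1 age, and none analysed here came from an animal without an injection or with a nerve injury, so no level below can be set against an untouched neuron.

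When an axon is damaged, a kinase cascade through DLK and JNK reaches the cell body and phosphorylates Jun. Jun, Atf3 and Sox11 are transcription factors that then drive a set of genes for survival and regrowth. Gap43 and Sprr1a act in growing axons, Gal encodes the neuropeptide galanin, Ecel1 a membrane metalloprotease, Hspb1 a small heat-shock protein, Gadd45a a stress-response protein and Flrt3 a cell-surface adhesion protein. Motor neurons of newborn rodents also carry some of these transcripts as part of normal axon growth, Gap43 in particular.

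Total counts per library lay between 4417114 and 8488368, and 1 read was worth 0.102 to 0.319 CPM (read counts scaled to a common library size after normalization by the trimmed mean of M-values, TMM). PL 2 and PL 3 stood apart, with no read for 25.7% and 29.2% of tested genes, against 0.732% to 13.7% in the other 13 libraries. Motor neuron markers, neurofilament genes among them, were read in each library, and 10 of them summed to between 15703.5 and 51127.5 CPM. Chat averaged from 83.3 CPM in IF to 404.8 CPM in PL. Isl1 averaged 0 CPM in TA and PL, 0.189 CPM in EDL, 66.1 CPM in GS and 97.1 CPM in IF. Replicates of a pool differed by more than counting noise in all 15 pairs. In bulk samples fewer cells of a type and less RNA per cell cannot be told apart.

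Set per gene length, by the RPKM values that the authors computed, the 10 genes ranged from a level above 24.3% of tested genes (Sox11) to one above 99.5% (Gap43). Gap43 was the most abundant, with a mean of 183.5 RPKM over the 15 libraries. Jun at 30.9 RPKM, Ecel1 at 30.2 RPKM and Sprr1a at 26.1 RPKM lay above 93.2% or more of them. The long and short Flrt3 models (5.55 and 5.20 RPKM) and Gadd45a (4.23 RPKM) were close to the middle. Hspb1 at 1.95 RPKM, Atf3 at 1.22 RPKM, Gal at 0.997 RPKM and Sox11 at 0.945 RPKM lay in the lower 40.3% of tested genes.

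**Figure D1:**
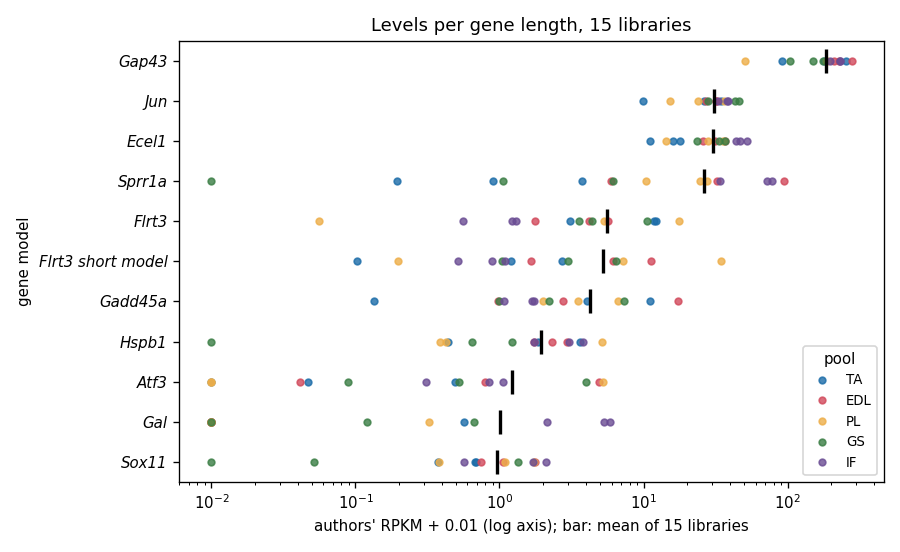
Levels per gene length of the 11 gene models, on a log axis of the authors' RPKM plus 0.01; each point is 1 library coloured by pool, and the bar is the mean of 15 libraries. Gap43 lies furthest right with a mean of 183.5 RPKM, and points at the left edge are libraries with no read.

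No gene of the 10 differed across the 5 pools at an adjusted p of 0.05. In edgeR's quasi-likelihood test with Benjamini-Hochberg adjustment over all tested genes, 0 of 11 rows were called, against a background of 1.31% (188 of 14340). At an unadjusted p under 0.05 there were 4 rows (Sprr1a, Gal and both Flrt3 models), where 15.5% of all tested genes had one. DESeq2 called 2 of the 11 rows, Sprr1a and the short Flrt3 model, where it called 8.35% of all genes it tested, and limma voom called 0. The lowest adjusted p in edgeR was 0.140 for Sprr1a, followed by 0.163 for Gal, 0.255 for the short Flrt3 model, 0.294 for the long Flrt3 model and 0.363 for Ecel1.

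Contrasting 1 pool at a time with the mean of the remaining ones gave a single call, Gal in IF. In IF, 1 of 11 rows was called, against a background of 1.1% of tested genes, or 0.704% for genes that were higher. Because Gal entered the tested set only through its IF libraries, that background is not a measure for its call. In edgeR, 0 rows were called in TA (background 0.418%), EDL (0.0976%), PL (4.87%) and GS (0.126%). Unadjusted p under 0.05 occurred in 2 rows for TA (12.3% of all tested genes), 2 for EDL (6.42%), 1 for PL (22.4%), 1 for GS (5.82%) and 4 for IF (9.38%). DESeq2 called 1 row in TA (background 3.02%), 0 in EDL, 1 in PL (background 12.3%) and 0 in GS, while limma voom called none of the 11 in any of these 4 pools. Over the 10 pairs of pools edgeR called 0 of 110 values, with a background of 0.248%. An unadjusted p under 0.05 was found for 15 values, where 10.4% of all pair values had one. DESeq2 called 9 values (background 3%) and limma voom 1 (background 0.527%). No pair of pools, neighbours in the orders below included, thus passed the threshold of edgeR for any of the 10 genes.

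**Figure D2:**
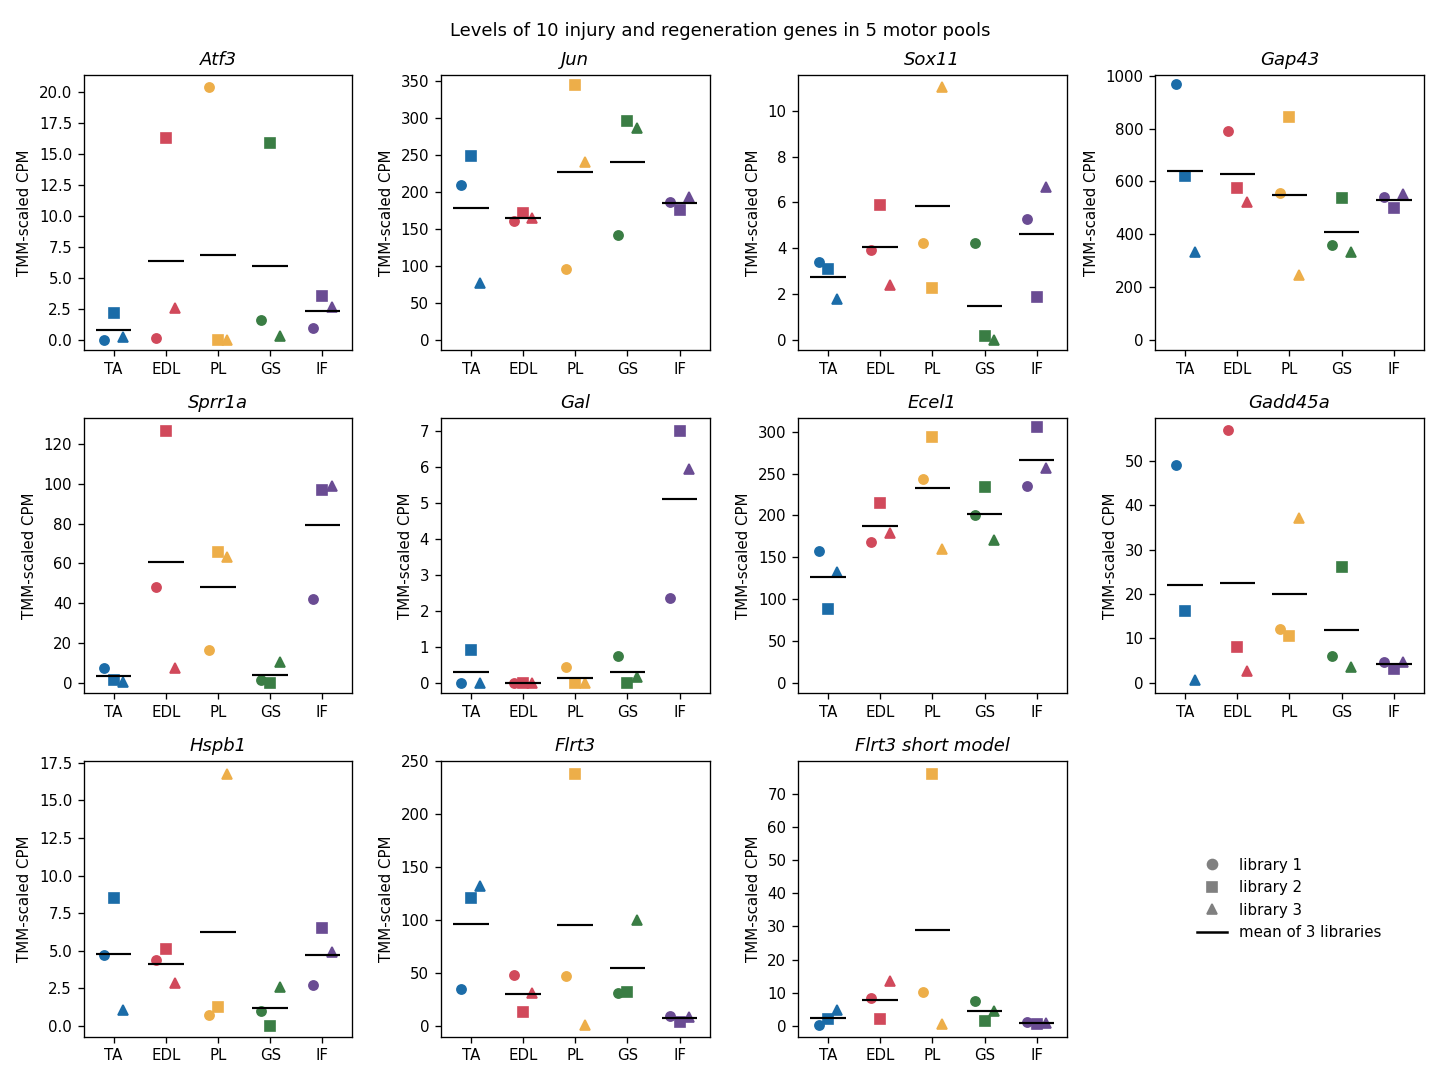
TMM-scaled CPM of each gene model (vertical axis from 0, 1 panel a model) in the TA, EDL, PL, GS and IF pools; a symbol is 1 library and the line is the mean of 3. Gal is at or below 0.903 CPM in every library outside IF, whereas Atf3 reaches above 10 CPM in 1 library of each of 3 pools.

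Atf3, a leucine-zipper transcription factor that is nearly silent in intact neurons (ENSMUSG00000026628, chr1:192994175-193007220 in mm9, minus strand), was low and erratic. It had 0, 2.17 and 0.176 CPM in TA, 0.116, 16.3 and 2.51 CPM in EDL and 20.4, 0 and 0 CPM in PL. GS had 1.61, 15.8 and 0.326 CPM, and IF had 0.916, 3.50 and 2.60 CPM. The libraries PL 1, EDL 2 and GS 2 held 79.0% of the summed CPM, each in a pool whose other libraries had at most 2.51 CPM. The pools overlapped throughout. The mean was highest in PL (6.79 ± 11.8 CPM, SD, n = 3) and lowest in TA (0.781 ± 1.20 CPM), with EDL, GS and IF between. The log2 fold change of Atf3 in PL against the other 4 pools changed sign in limma voom and without PL 1, so the order of means is not firm. The spread within a pool exceeded the differences between pools, which took 10.9% of the variance of log2(CPM + 1), the lowest share among the 11 rows (adjusted p across pools = 0.893, edgeR).

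Jun, the AP-1 subunit that Atf3 can pair with (ENSMUSG00000052684, chr4:94715725-94718914 in mm9, minus strand), was abundant in all 15 libraries. Its level was 209, 248 and 75.8 CPM in TA, 160, 171 and 164 CPM in EDL and 95.1, 344 and 240 CPM in PL. GS had 141, 295 and 285 CPM and IF had 186, 175 and 193 CPM. TA, PL and GS overlapped with one another and with the rest, whereas the tightly grouped EDL libraries all lay below those of IF. The order of means was GS, PL, IF, TA and EDL, with 240.5 ± 86.5 CPM in GS and 164.9 ± 5.59 CPM in EDL. The fold changes of TA, PL and IF each changed sign in at least 2 other settings. Over the 5 comparisons of a pool with the other 4, the 95% intervals of the log2 fold change of Jun reached no lower than -1.11 and no higher than 1.12. An unstranded library cannot separate reads of Jun from those of its overlapping partner BC042782 on the opposite strand, which had 581 reads in all against 19293 for Jun.

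Sox11, a transcription factor of immature and regenerating neurons (ENSMUSG00000063632, chr12:28025562-28027575 in mm9, minus strand), had few reads, 391 over the 15 libraries. TA libraries held 3.39, 3.07 and 1.76 CPM, EDL libraries 3.94, 5.88 and 2.38 CPM, and PL libraries 4.22, 2.24 and 11.03 CPM. GS libraries held 4.24, 0.170 and 0 CPM and IF libraries 5.29, 1.87 and 6.65 CPM. The highest value belonged to PL 3 and both values under 1 CPM to GS, whose first library nevertheless lay above all 3 of TA. No difference passed the test (adjusted p across pools = 0.941, edgeR).

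Gal (ENSMUSG00000024907, chr19:3409919-3414473 in mm9, minus strand) had the largest share of its variance between pools, 86.6%. Galanin is a neuropeptide that many rodent neurons switch on after their axon is cut. IF libraries held 2.34, 6.998 and 5.93 CPM. TA libraries held 0, 0.903 and 0 CPM, EDL libraries 0, 0 and 0 CPM, PL libraries 0.433, 0 and 0 CPM and GS libraries 0.731, 0 and 0.163 CPM. All 3 IF libraries thus lay above the 12 others. Of tested genes 1.88% showed this pattern. However, Gal entered the tested set only through its IF libraries, so it had to differ there. Neither that 1.88% nor its 86.6% of variance between pools is therefore a measure for it. In reads this was 120 in IF against 15 in the other 4 pools together, namely 5 in TA, 0 in EDL, 4 in PL and 6 in GS.

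The pooled ratio of IF to the other 4 pools, per scaled read, was 25.3, with a 95% counting interval of 14.8 to 46.7. Against EDL, which had no read, Gal was at least 41.1-fold higher in IF (3 reads assumed over the EDL group). These intervals and floors describe counting alone, because libraries hold PCR copies of the same molecule. In edgeR's quasi-likelihood test Gal rose in IF against the other 4 pools with an adjusted p of 0.0474. Since Gal had to differ in IF to enter the tested set, the share of genes called in IF is no measure for this call either. With no filter on low counts the adjusted p was 0.0198, in a fit that called 514 of 20453 genes in IF. The call of Gal in the filtered fit was lost in 13 of the 15 fits that left out 1 library (adjusted p 0.0366 to 0.281). It held without TA 2 or without PL 1. Without PL 2 and PL 3 together, which leaves 1 library in PL, the log2 fold change was 4.95. It was also lost in DESeq2 (0.257) and held in limma voom (0.00697). The 8 libraries with no read of Gal allow levels of up to 0.339 to 0.958 CPM (3 reads), and the values above 0 outside IF rest on 1 to 5 reads each.

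The IF libraries also had the fewest tested genes without a read, 0.732% to 1.38%, against 1.55% to 29.2% in the other 12. Summed markers of 4 other cell types had their lowest median in IF, those of oligodendrocytes and interneurons with no overlap. Microglial markers instead had their highest median in IF, 58.4 CPM against 16.6 to 54.6 CPM in the other pools, with overlap. Fibroblast and Schwann cell markers had their lowest median in GS. The motor neuron markers also had their lowest median in IF, 22520.8 CPM. The 10 oligodendrocyte markers summed to 224 to 237 CPM in IF, against 304 to 2345 CPM in the other libraries. Of these markers, the myelin gene Mbp fell in IF (adjusted p = 0.0257, edgeR), and the call held in 11 of the 15 fits that left out 1 library. The 7 interneuron markers summed to 34.8 to 71.0 CPM in IF, against 120 to 374 CPM elsewhere, with 0 of 5 tested genes called in IF by edgeR, 2 at an unadjusted p under 0.05 and 0 by DESeq2 or limma voom. Astrocyte markers summed to 2020 to 2302 CPM in IF, against 2254 to 4159 CPM elsewhere, and endothelial markers to 21.8 to 28.8 CPM in IF, against 13.1 to 684 CPM elsewhere. The part of these differences in the Gal result, and in the values of Flrt3 in IF given below, was not tested.

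Gap43, a growth-cone membrane protein of elongating axons (ENSMUSG00000047261, chr16:42248555-42340765 in mm9, minus strand), was high in every library. Its values were 968, 620 and 331 CPM in TA, 790, 576 and 521 CPM in EDL and 556, 845 and 247 CPM in PL. GS had 357, 538 and 332 CPM and IF had 540, 499 and 553 CPM. Every pair of pools overlapped, and TA and PL each held both high and low libraries. The mean was highest in TA (639.9 ± 318.8 CPM) and lowest in GS (409.0 ± 112.7 CPM), with EDL, PL and IF between. Without TA 1 the fold change of Gap43 in TA changed sign. For Gap43 the 95% intervals of log2 fold change over the 5 pools, each against the other 4, lay between -1.22 and 0.95.

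Sprr1a, a small proline-rich protein that injured sensory neurons of rodents induce and that promotes axon outgrowth (ENSMUSG00000050359, chr3:92287877-92289817 in mm9, minus strand), had the widest-set pool means among the abundant members. IF libraries held 42.0, 97.0 and 98.8 CPM, EDL libraries 48.1, 127 and 7.65 CPM and PL libraries 16.2, 65.5 and 63.3 CPM. GS libraries held 1.32, 0 and 10.3 CPM and TA libraries 7.46, 1.63 and 0.352 CPM. Every TA library lay below every library of IF, EDL and PL, while GS overlapped with EDL through GS 3 and EDL 3. Between pools lay 73.9% of the variance of log2(CPM + 1), against a median of 34.7% over all tested genes.

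None of these differences passed edgeR's test on the filtered genes. Against the other 4 pools, the log2 fold change of Sprr1a was 2.52 ± 0.83 (SE) in IF (adjusted p = 0.210, edgeR), 2.05 ± 0.84 in EDL (0.674), -2.92 ± 1.18 in GS (0.725) and -3.28 ± 1.21 in TA (0.272). DESeq2 called Sprr1a across the pools (adjusted p = 0.00631) and in TA (0.0186), and limma voom called it in IF (0.0241). With no filter on low counts edgeR itself called Sprr1a across pools (7.27e-05), in IF (0.00633) and in TA (0.0208). That fit called 1425 of 20453 genes across pools, 514 in IF and 492 in TA. In the authors' deposited table of DESeq comparisons Sprr1a was listed as higher in EDL than in TA (19.8-fold, adjusted p = 0.0276), in IF than in GS (20.3-fold, 5.31e-08) and in IF than in TA (25.4-fold, 4.04e-05). For these pairs edgeR on the filtered genes gave log2 fold changes of -4.26 (TA over EDL), -4.35 (GS over IF) and -4.64 (TA over IF). Their adjusted p in edgeR was 0.420, 0.555 and 0.183. The deposited comparisons and this fit thus place Sprr1a on different sides of the threshold. The 3 tested genes whose levels moved most like those of Sprr1a over the 15 libraries were Lix1, Osbpl3 and Fam19a1, by the root mean square difference of centred log2(CPM + 1) among 9213 genes of at least 10 CPM. Their differences were 1.28, 1.44 and 1.46, against a median of 2.54 over those genes, and their adjusted p across pools in edgeR was 0.286, 0.0921 and 0.303.

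The Sprr1a promoter is shown because AP-1, the dimer that Jun forms, was searched for in the promoters of the 10 genes. Windows of 300 bases, 250 before to 50 after the start, came from RefSeq (build GRCm38.p6) and were found for 9 of the 10; Gap43 had none in the table. The letters TGACTCA (AP-1) and TGACGTCA (the cyclic AMP response element, CRE) were searched on both strands, and the shorter motif is not contained in the longer one. AP-1 letters occurred in 1 of the 9 promoters, that of Sprr1a, with 2 matches at 146 and 116 bases before the start, whereas 5.2% of 32851 RefSeq promoters hold at least 1. CRE letters occurred in 0 of the 9, against 1.79% of all promoters. The promoters of Gal and Flrt3, the other members with an unadjusted p under 0.05 across pools, are printed beside it; capitals mark the AP-1 matches, which only the first holds.

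Sprr1a, chr3:92485832-92486131, minus strand: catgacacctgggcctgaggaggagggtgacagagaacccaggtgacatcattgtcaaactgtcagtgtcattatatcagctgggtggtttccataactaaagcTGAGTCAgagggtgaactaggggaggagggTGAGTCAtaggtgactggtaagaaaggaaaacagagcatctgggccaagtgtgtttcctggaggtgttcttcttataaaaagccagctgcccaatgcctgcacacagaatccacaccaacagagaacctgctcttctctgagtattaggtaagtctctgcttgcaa

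Gal, chr19:3414495-3414794, minus strand: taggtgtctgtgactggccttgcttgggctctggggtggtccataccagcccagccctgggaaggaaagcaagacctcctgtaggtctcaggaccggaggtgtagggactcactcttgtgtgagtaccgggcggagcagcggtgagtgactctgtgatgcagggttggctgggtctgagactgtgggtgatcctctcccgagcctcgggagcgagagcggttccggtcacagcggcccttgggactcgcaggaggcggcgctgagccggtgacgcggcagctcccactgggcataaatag

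Flrt3, chr2:140671427-140671726, minus strand: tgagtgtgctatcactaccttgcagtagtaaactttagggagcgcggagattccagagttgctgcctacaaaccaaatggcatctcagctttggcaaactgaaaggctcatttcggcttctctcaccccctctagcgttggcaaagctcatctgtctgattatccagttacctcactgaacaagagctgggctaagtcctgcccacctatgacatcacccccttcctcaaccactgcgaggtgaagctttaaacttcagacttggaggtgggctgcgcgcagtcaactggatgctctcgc

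These matches are a description of the letters in 1 window and were not measured as sites. Atf3, whose product also binds AP-1 and CRE letters, and Sprr1a showed no relation past the threshold over the 15 libraries: Pearson's r was -0.05 (permutation p = 0.864, adjusted p = 0.864) and Spearman's rho 0.09 (permutation p = 0.761, adjusted p = 0.923).

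Ecel1, a membrane metalloprotease induced by nerve injury in rodents (ENSMUSG00000026247, chr1:89044230-89053097 in mm9, minus strand), was steady within each pool. TA libraries held 158, 88.7 and 133 CPM, EDL libraries 168, 214 and 178 CPM, and PL libraries 244, 294 and 160 CPM. GS libraries held 201, 235 and 170 CPM and IF libraries 236, 306 and 257 CPM. All 3 TA libraries lay below the 12 others, a pattern that 0.558% of tested genes showed, although TA 1 and PL 3 were nearly level. The IF libraries lay above all of TA, EDL and GS and overlapped with PL. The within-pool SD of log2(CPM + 1) was 0.32, the smallest of the 11 rows, against a median of 1.00 over tested genes. Ecel1 had a log2 fold change of -0.80 ± 0.29 (SE) in TA against the other 4 pools, with an adjusted p of 0.261 in edgeR, and of -1.07 ± 0.35 in TA over IF (adjusted p = 0.220). The TA to IF difference was called in DESeq2 (adjusted p = 0.0471), but not in limma voom (0.114) or in edgeR with no filter on low counts (0.301). It was called in 0 of the 15 fits that left out 1 library. Without PL 2 and PL 3 its log2 fold change was -1.11.

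Gadd45a, a small stress-inducible protein (ENSMUSG00000036390, chr6:66985090-66987452 in mm9, minus strand), varied widely between libraries. TA libraries held 49.0, 16.3 and 0.528 CPM, EDL libraries 56.9, 8.15 and 2.76 CPM and PL libraries 12.1, 10.5 and 37.1 CPM. GS libraries held 6.14, 26.0 and 3.59 CPM and IF libraries 4.58, 3.12 and 4.77 CPM. The IF values were the least spread, lay inside the ranges of TA and EDL, overlapped with GS and lay below all of PL. No pool passed the test (adjusted p across pools = 0.779, edgeR). Its reads cannot be separated from those of E230016M11Rik, which overlaps it on the other strand and had 705 reads against 1600 for Gadd45a.

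Hspb1, a small heat-shock protein that is high in mature motor neurons and rises further after axotomy in rodents (ENSMUSG00000004951, chr5:136363789-136365434 in mm9, plus strand), was scarce, with 410 reads in all. TA libraries held 4.75, 8.49 and 1.06 CPM, EDL libraries 4.402, 5.09 and 2.89 CPM and PL libraries 0.758, 1.28 and 16.8 CPM. GS libraries held 1.02, 0 and 2.61 CPM and IF libraries 2.75, 6.50 and 4.92 CPM. PL 3 was the highest of the 15, and the GS libraries all lay below those of IF and EDL. The test found no difference (adjusted p across pools = 0.912, edgeR).

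Flrt3, a leucine-rich-repeat protein of the cell surface that takes part in adhesion and axon guidance, had its lowest pool mean in IF, 7.25 ± 2.72 CPM. IF libraries held 8.96, 4.12 and 8.68 CPM. TA libraries held 34.6, 121 and 133 CPM, EDL libraries 47.7, 13.2 and 30.9 CPM, PL libraries 47.2, 238 and 0.662 CPM and GS libraries 31.1, 32.3 and 99.9 CPM. Of the 12 other libraries only PL 3 overlapped with IF. The log2 fold change of Flrt3 in IF against the other 4 pools was -3.10 ± 1.04 (SE), with an adjusted p of 0.224 in edgeR. Without PL 3 the adjusted p was 0.0259, the 1 call among the 15 fits that left out 1 library (up to 0.740). DESeq2 gave 0.0158 and edgeR with no filter on low counts 0.00911. Limma voom gave 0.455 and edgeR with the replicate number as a block 0.308, so neither called it. The log2 fold change without PL 2 and PL 3 was -2.83. In the authors' deposited table Flrt3 was listed as higher in TA than in IF, 13.2-fold with an adjusted p of 0.000575. For that pair edgeR on the filtered genes gave a log2 fold change of 3.72 (adjusted p = 0.206).

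The short Flrt3 model (737 bases, chr2:140476652-140497187 in mm9) overlaps the long one (4530 bases, chr2:140483934-140497206) and both overlap Macrod2 on the opposite strand, so reads could be split between them and the values of both models are uncertain. Macrod2 had 4680 reads in all, against 4782 for the long model and 684 for the short one. PL libraries held 10.3, 76.0 and 0.441 CPM of the short model, and IF libraries 1.22, 0.625 and 1.01 CPM. TA libraries held 0.170, 1.99 and 4.75 CPM, EDL libraries 8.46, 2.04 and 13.4 CPM and GS libraries 7.46, 1.53 and 4.57 CPM. PL 2 alone held 56.7% of its summed CPM. Its log2 fold change in PL against the other 4 was 3.26 ± 0.95 (SE; adjusted p = 0.0529, edgeR), and without PL 2 it was 0.85 (adjusted p = 0.768). In IF the short model had a log2 fold change of -2.85 ± 1.35 (adjusted p = 0.527, edgeR).

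**Figure D3:**
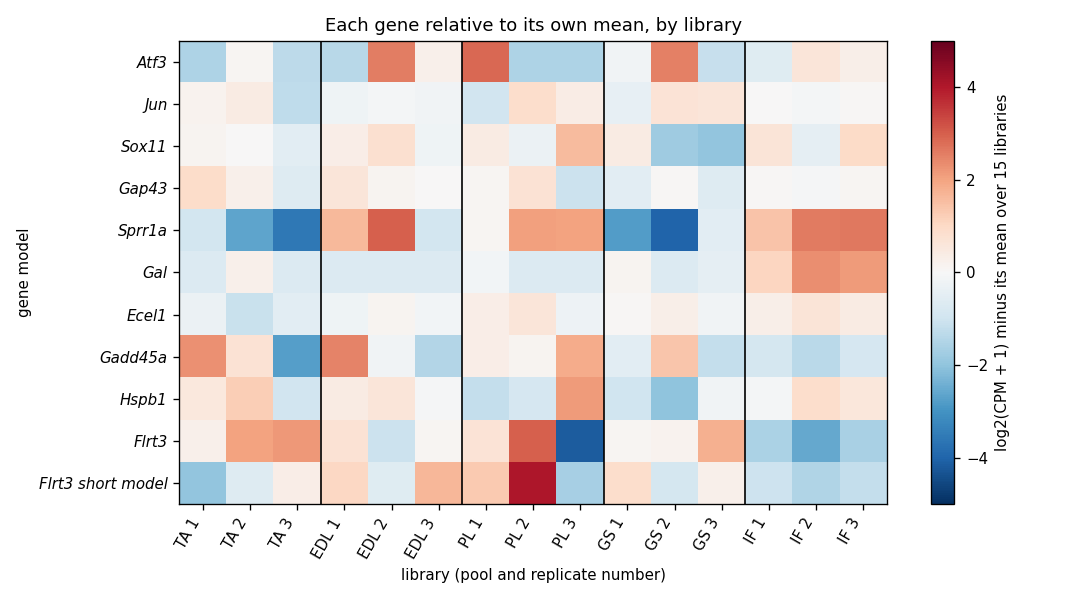
Level of each gene model in each library as log2(CPM + 1) minus the mean of the model over 15 libraries (colour scale; red above, blue below), with libraries grouped by pool. Gal is above its mean in all 3 IF libraries, and the reddest cells of Atf3 fall in PL 1, EDL 2 and GS 2, single libraries of different pools.

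Atf3, the usual marker of an injured neuron, tracked none of the other members past the threshold. It was set against the 10 other rows over the 15 libraries, with Pearson's r and Spearman's rho on log2(CPM + 1) and 2-sided permutation tests. Pearson's r ran from -0.33 (Hspb1) to 0.33 (Ecel1), with an adjusted p of 0.864 for each of the 10. For Ecel1 rho was 0.46 (permutation p = 0.0903, adjusted p = 0.743), the largest of the 10. With levels centred on pool means r lay between -0.34 and 0.33, with adjusted p of 0.690 or more. Leaving out EDL 2 and PL 1, the libraries farthest from the Atf3 median, gave r between -0.36 and 0.34 (adjusted p 0.685 or more). With no TMM scaling the r of Ecel1 was 0.49 and its rho 0.59 (permutation p = 0.0225, adjusted p = 0.225), and without PL 2 and PL 3 its rho was 0.68 (permutation p = 0.0133, adjusted p = 0.133). No relation passed the threshold after adjustment in any of these settings.

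**Figure D4:**
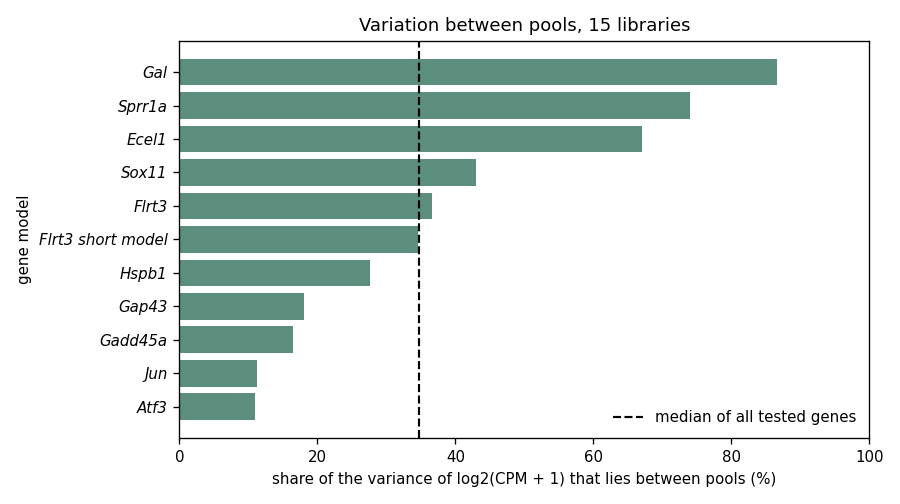
Share of the variance of log2(CPM + 1) over 15 libraries that lies between the 5 pools, for each gene model (bars, percent); the dashed line is the median of all tested genes, 34.7%. Gal (86.6%), Sprr1a (73.9%) and Ecel1 (67.1%) lie highest and Atf3 (10.9%) lowest. Gal passed the filter on low counts only through its IF libraries, so it had to differ between pools.

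Over the 11 rows the median share of variance between pools was 34.6%, beside 34.7% over all tested genes, and 5 of the 11 lay above that value. The median within-pool SD of log2(CPM + 1) was 1.08, beside 1.00 over all tested genes. As a list the 10 genes had about the spread of the table as a whole, with Gal, Sprr1a and Ecel1 at one end and Atf3 and Jun at the other. Of these, Gal had to differ between pools, because it passed the filter only through IF.

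Other genes of the injury response were read from lists of known genes, with the same edgeR fit. Of 17 tested rows of injury-related transcription factors (among them Egr1, Atf4, Stat3 and Klf6) 0 were called across pools or in any pool by edgeR. Across pools 2 of the 17 had an unadjusted p under 0.05 (15.5% of all tested genes), DESeq2 called 1 (background 8.35%) and limma voom 0. In single pools 1 to 4 of the 17 had an unadjusted p under 0.05, limma voom called 0, and DESeq2 called 3 in PL (background 12.3%; Egr1, Atf4 and Crem) and 0 in the other pools. Their lowest p across pools belonged to Egr1, an immediate-early factor (adjusted p = 0.128), and Atf4, an effector of the integrated stress response (0.318). Of 11 genes of the DLK and JNK cascade, Map3k12, which encodes DLK, rose in PL against the other 4 pools (log2 fold change 1.31 ± 0.36, adjusted p = 0.0451, edgeR; 372.0 ± 279.7 CPM in PL). Without PL 2 and PL 3, which leaves 1 library in PL, the log2 fold change of Map3k12 was 0.19. The call held in 3 of the 15 fits that left out 1 library.

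Among 25 tested regeneration effectors, 4 were called across pools by edgeR, against a background of 1.31%. They were the neuropeptides Nts and Vip, the retinoic acid carrier Crabp2 and the cytokine receptor Lifr. The list was chosen with earlier results of these data known, so its count of calls cannot be measured against that background. Vip averaged 55.2 ± 8.01 CPM in IF, against 6.27 ± 8.78 CPM in EDL and at most 0.0361 CPM elsewhere. Crabp2 averaged 124.4 ± 1.93 CPM in IF and at most 0.0487 CPM in any other pool. Crabp2 passed the filter on low counts only through its IF libraries, so it had to differ there. Vip passed it through IF and 1 EDL library and would not have passed without IF. Lifr, a subunit of the receptor for leukaemia inhibitory factor, averaged 1392 ± 109.0 CPM in IF and 833.4 ± 302.8 CPM in PL, against 233.2 ± 63.2 CPM in TA. Nts was highest in EDL at 514.3 ± 74.5 CPM and lowest in IF at 3.95 ± 1.51 CPM. Chl1, an adhesion protein of growing axons, rose in PL (1.40 ± 0.30, adjusted p = 0.0123, edgeR). That call held in 14 of the 15 fits that left out 1 library. Without PL 2 and PL 3, which leaves 1 library in PL, the log2 fold change of Chl1 was 0.77.

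Of 12 genes that restrain axon growth, Tsc2, an inhibitor of mTOR signalling, rose in PL (log2 fold change 2.02 ± 0.43, adjusted p = 0.0114, edgeR). Its call held in 14 of the 15 fits that left out 1 library. Without PL 2 and PL 3, which leaves 1 library in PL, the log2 fold change of Tsc2 was 0.06. Of 13 tested early-response and heat-shock genes, the chaperone Dnajb1 fell in PL (-2.23 ± 0.56, adjusted p = 0.0265, edgeR). The call of Dnajb1 held in 13 of those 15 fits, and its log2 fold change was -1.71 without PL 2 and PL 3. The early-response list summed to 525 to 632 CPM in PL and to 694 to 1430 CPM in the other pools, and it was highest in TA 2. In the same contrast 4.5% of all tested genes were called higher and 0.363% lower in PL, the background for these calls in that pool.

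**Figure D5:**
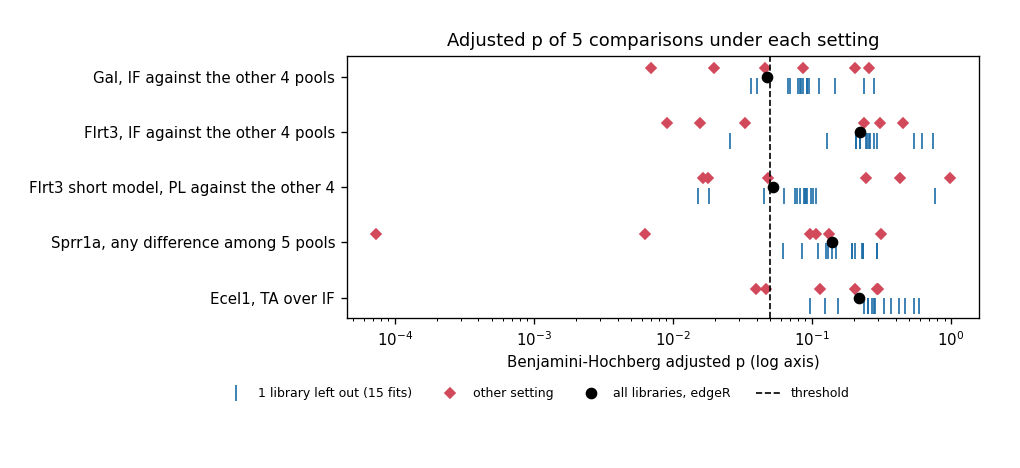
Benjamini-Hochberg adjusted p (log axis) of 5 comparisons with all libraries (black), with each of 15 libraries left out (blue) and in 6 other settings (red); the dashed line is 0.05. Gal in IF lies at 0.0474 and crosses the line in most fits, and Flrt3 in IF, at 0.224, crosses it in 4 of them.

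Markers of other cell types that a laser cut can carry along were present and varied by library. The 12 microglial markers, which mark cells that gather around injured motor neurons, summed to 2.90 to 210.9 CPM and were highest in PL 3, with 0 of 8 tested genes called in any pool by edgeR, DESeq2 or limma voom and 2 at an unadjusted p under 0.05 (C1qb and Itgam, both in PL). The 8 astrocyte markers summed to 2020 to 4159 CPM. Of these, Slc1a2 fell in IF against the other 4 pools (log2 fold change -0.98 ± 0.22, adjusted p = 0.0378, edgeR), a call that held in 4 of the 15 fits that left out 1 library. The 6 endothelial markers summed to 13.1 to 684 CPM with the highest value in PL 2, the library in which both Flrt3 models were also highest. Cdh5 rose in PL (log2 fold change 5.98, adjusted p = 0.00713, edgeR), a call that held in 14 of the 15 fits that left out 1 library. Without PL 2 and PL 3, which leaves 1 library in PL, the log2 fold change of Cdh5 was 0.58. The 7 fibroblast and meningeal markers summed to 6.71 to 216.7 CPM, and Dcn rose in EDL (adjusted p = 0.00899, edgeR). Among the 3 libraries high in Atf3, EDL 2 had the highest sum of all, 216.7 CPM, PL 1 had 57.1 CPM and GS 2 had 8.68 CPM. Of the Schwann cell markers, Pmp22 was called higher in PL (log2 fold change 1.57, adjusted p = 0.0114, edgeR). This call held in 14 of the 15 fits that left out 1 library, and the log2 fold change was -0.04 without PL 2 and PL 3. Of the 10 motor neuron markers, Chat and Isl1 were called across pools (adjusted p = 0.0245 and 0.000227, edgeR). The call of Chat in PL and those of Isl1 in GS and IF held in all 15 fits that left out 1 library. In PL the log2 fold change of Chat was 1.73, and it was 0.98 without PL 2 and PL 3. The part of these cells in the levels of the 10 genes was not tested.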

How the data were processed

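Per the labels' protocols, RNA of laser-captured cells was amplified with the Ovation RNA-Seq System V2, made into Nextera libraries, which do not mark strand, and sequenced single-end. Per the submitters' processing notes, reads were aligned with Bowtie 0.12.9 to mm9 and compared with DESeq, whose version is not given. The authors deposited a gene table with raw counts and RPKM values. The deposited count columns also hold 16 cells below 0, in 4 genes, for which the sources used here give no reason. These 4 genes were left out. The authors' deposited lists of genes higher in 1 pool than another give the fold (a ratio) and p-values. How reads were counted, and against which gene models, is not given in the sources used here.

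Counts were fitted with edgeR 4.0.16 (R 4.3.3): TMM scaling, the filterByExpr filter (14340 of 36814 rows kept), glmQLFit over all 15 libraries with a mean for each pool, and glmQLFTest across the 5 pools, for single pools set against the other 4 and for the 10 pairs. P-values were Benjamini-Hochberg adjusted over all tested genes, with 0.05 as the threshold. CPM values were TMM-scaled, and log2 levels used a pseudocount of 1. Alternatives were DESeq2 1.42.0, limma voom 3.58.1, DESeq2's size factors, no filter, the replicate number as a block and libraries left out. Scripts ran under Python 3.11.15.

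The members and lists were chosen with earlier results of these data known. Named were all 10 members, the genes of each list called in a fit (up to 6, otherwise the 2 with the lowest p across pools) and the 3 genes most like the member with the lowest p. Endothelial, oligodendrocyte, Schwann, fibroblast, motor neuron and other marker lists were read in the same way. Some single marker genes are not reported here. Libraries are biological replicates per the labels, which do not say which animals went into which library, so p-values measure the spread between these pooled libraries. No label gives a batch. Over 30 pairs of libraries with the same replicate number in different pools, deviations from pool means correlated at -0.07 to 0.13, so the numbers were not taken as pairing the samples.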

Additional observations from a re-analysis of the deposited data

How the results depend on the processing

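Over the 11 rows and 5 pools, 10 of 55 log2 fold changes had an unadjusted p under 0.05, and none of these 10 changed sign in the 21 alternatives; of the other 45, 25 changed sign in at least 1, Atf3 in PL and Gap43 in TA among them. Members called in IF (1 with all libraries) numbered 2 with limma voom, which called 278 of 14340 genes there. With no filter on low counts they numbered 3, where 514 of 20453 genes were called. DESeq2 also gave 1, but there it was the long Flrt3 model, with 249 of 13930 genes called. With DESeq2 the members called numbered 2 across pools, 1 in TA, 1 in PL and 9 over the pairs. With no filter these were 2, 1, 1 and 7. That fit called 1425 of 20453 genes across pools, 492 in TA, 1485 in PL and 40 to 599 in a pair. DESeq2's size factors gave 1 call in PL, where 799 of 14340 genes were called, and limma voom gave 1 over the pairs. Leaving out 1 library at a time gave 0 to 1 members across pools, 0 to 1 in IF, 0 to 2 in PL, 0 to 2 over the pairs and 0 in TA, EDL and GS. Over all genes the count across pools, 188, was 1163 with DESeq2, 1425 with no filter and 66 to 1211 with 1 library left out. No relation of Atf3 to the other rows was called in any of the 5 alternatives run, of which the one without EDL 2 and PL 1 was added to the others afterwards. The cause of these differences was not tested.

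The replicate block, a term for the replicate number of the labels, gave 0 members called in IF and 95 genes across pools; the numbers showed no pairing of the samples, and for Gal in IF the adjusted p with the block was 0.0868. Depth limits Atf3, Gal, Sox11 and Hspb1 most, which had 135 to 527 reads in all.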
